A study of Homo sapiens with 21 samples.

Results

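The regions described here are distal AP-1 regions without an ERE: places in the genome bound by estrogen receptor beta (ER-beta) that held an AP-1 element near the point of highest signal, lay away from promoters and exons, and held no close match to an estrogen response element. They numbered 1806 of the 26861 regions on chromosomes 1 to 22, X and Y in the pooled list from estradiol-treated cells. The cells were MDA-MB-231, an established human triple-negative breast cancer line, carrying a doxycycline-inducible, Flag-tagged full-length ER-beta. Chromatin was precipitated with an antibody against the Flag tag and sequenced (ChIP-seq). All cells received doxycycline at 100 ng/ml to switch on the receptor, for 24 h per the sample names, and then ligand or vehicle for 3 h. The groups were 1 nM estradiol, LY500307 (a synthetic ligand selective for ER-beta) and ethanol vehicle, with 4 ChIP and 3 input libraries each. The dose of LY500307 is 1 nM in the sample names and 10 nM in the treatment descriptions, so it is left undecided here. The receptor is a transgene in a line known for lacking estrogen receptor alpha, and there was no group without doxycycline among the samples analysed.

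The AP-1 factors are dimers of FOS and JUN family proteins that bind a short, nearly palindromic element in many enhancers and drive genes of growth, invasion and stress responses. Estrogen receptors bind DNA directly as dimers at the ERE, a palindrome of a pair of half-sites separated by a short spacer. They can also be held at AP-1 elements through contact with the AP-1 proteins, a mode known as tethering, for which an ERE is not needed.

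Membership rested on sequence and position and used no measured value except the position of the summit. The AP-1 element was TGACTCA or its reverse complement TGAGTCA, wholly within 100 bp of the summit, and the ERE was the palindrome GGTCANNNTGACC with at most 2 mismatches in its 10 half-site bases. A summit was distal when it lay outside the stretch from 1000 bp before to 100 bp after the transcription start site (TSS) of a protein-coding gene and outside the exons of such genes. By these steps, 20641 estradiol regions were distal, 3382 of those held AP-1 (16.4%, 95% interval 15.9 to 16.9%), and 1806 held AP-1 and no ERE (8.75% of distal regions, 8.37 to 9.14%). In windows of the same length 2000 bp downstream of the summits of all distal regions, AP-1 was found in 3.50%. Intervals are 95% Wilson intervals, and each treatment has 1 pooled list, so they hold counting error and no spread between replicates.

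The 3 regions with the highest −log10 q are shown first because they are the strongest and hold the elements described below, AP-1 and an incomplete ERE. Regions are named by the gene with the nearest TSS, and of these 3 the SLC1A7 region lies in an intron of that gene and the others between genes. Each line gives the summit and 100 bases on either side on the plus strand of hg38, 5′ to 3′, with the AP-1 element and the closest match to the ERE in capitals. That closest match has 3 mismatches in each of them, 1 more than the rule allowed.
CCN1 (chr1:85599171-85599371): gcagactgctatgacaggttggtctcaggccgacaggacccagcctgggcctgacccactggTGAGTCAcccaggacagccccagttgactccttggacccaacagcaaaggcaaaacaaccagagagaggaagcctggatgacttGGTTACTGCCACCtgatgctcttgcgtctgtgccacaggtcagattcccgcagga
SLC1A7 (chr1:53112650-53112850): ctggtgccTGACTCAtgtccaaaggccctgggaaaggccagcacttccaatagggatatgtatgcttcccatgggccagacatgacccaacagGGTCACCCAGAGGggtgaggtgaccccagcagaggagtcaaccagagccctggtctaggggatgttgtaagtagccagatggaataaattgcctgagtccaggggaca
BHLHE40 (chr3:5021498-5021698): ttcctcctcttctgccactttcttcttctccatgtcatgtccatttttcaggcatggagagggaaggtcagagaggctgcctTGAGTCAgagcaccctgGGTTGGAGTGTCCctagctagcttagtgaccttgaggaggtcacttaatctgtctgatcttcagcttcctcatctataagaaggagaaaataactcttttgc

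In each of these windows AP-1 is the first run of capitals and the ERE match the second. The AP-1 centre lay 35 bp from the summit at CCN1, 89 bp at SLC1A7 and 15 bp at BHLHE40. The closest ERE placement, GGTTACTGCCACC at CCN1, GGTCACCCAGAGG at SLC1A7 and GGTTGGAGTGTCC at BHLHE40, was centred 52 bp, 1 bp and 5 bp from the summit. It was therefore nearer the summit than AP-1 at SLC1A7 and BHLHE40, and farther from it at CCN1.

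The next 7 regions by −log10 q are shown as 61 bases centred on AP-1 (capitals), on the plus strand, so that the flanks of the element can be read. The NANOS3 line holds a second copy, which lies outside the window around that summit and was not counted. The CDH3 region lies in an intron of that gene, the MCFD2 region in an intron of TTC7A, and the others between genes.
SPRED2 (chr2:65604387-65604447): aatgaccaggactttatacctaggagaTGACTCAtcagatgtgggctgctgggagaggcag
CD83 (chr6:14231439-14231499): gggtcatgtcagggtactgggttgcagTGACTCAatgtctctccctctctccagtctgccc
MCFD2 (chr2:46970796-46970856): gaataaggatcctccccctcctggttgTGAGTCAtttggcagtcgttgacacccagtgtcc
NANOS3 (chr19:13851283-13851343): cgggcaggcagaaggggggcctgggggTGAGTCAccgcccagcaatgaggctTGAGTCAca
CDH3 (chr16:68708031-68708091): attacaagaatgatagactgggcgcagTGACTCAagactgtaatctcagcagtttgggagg
ZMIZ1 (chr10:78779519-78779579): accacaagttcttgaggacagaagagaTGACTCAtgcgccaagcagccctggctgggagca
ZDHHC7 (chr16:84942107-84942167): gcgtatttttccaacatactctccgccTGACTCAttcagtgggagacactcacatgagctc

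The lists hold 26896 records for estradiol, 10059 for LY500307 and 2911 for vehicle, of which 26861, 10045 and 2905 lay on the chromosomes used. Each region has the authors' fold of ChIP signal over background, −log10 q and summit, all from the pool. Read depth is unknown from these lists, so a list can be longer because of more binding or of more reads, and the lists of different length cannot be compared as levels. Expression was not measured in them, so the cell line could not be checked against its markers.

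The label of the set was checked against the sequences. AP-1 was present in each member by construction, and the absence of an ERE was a matter of degree. The best ERE placement in the window had 3 mismatches in 1443 members (79.9%, 78.0 to 81.7%), 4 in 360 and 5 in 3. In the downstream windows of members that likewise held no ERE with 2 or fewer mismatches, 3 was the fewest in 44.05% (41.7 to 46.5%) of 1646 windows. Distal regions with a half-site and neither ERE nor AP-1 had a 3-mismatch match in 81.5% (80.4 to 82.5%). The half-site itself, GGTCA or TGACC, occurred in 1301 members (72.0%, 69.9 to 74.1%), against 580 of the 1806 downstream windows (32.1%). Most members thus held part of an ERE, and "without an ERE" means without one of at most 2 mismatches. The AP-1 element begins with TGACT, which differs from the half-site TGACC in its last base only. It was in 4.21% of the 1806 downstream windows, against all members by rule. A half-site also makes up part of a 3-mismatch match, so these counts are not independent. The part of either in the difference from downstream was not tested.

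Half-sites and incomplete EREs were densest at the summit, and AP-1 was less dense there than to its sides. The members held 2063 half-sites, of which 40.0% (37.9 to 42.1%) were centred within 20 bp of the summit, and their density per base there was 2.29 times the density 30 to 70 bp away. For the 2571 palindrome matches with 3 mismatches the share within 20 bp was 38.5% (36.7 to 40.4%) and the density ratio 2.16. In the downstream windows the shares were 20.3% (17.6 to 23.4%) for half-sites and 22.1% (19.7 to 24.7%) for 3-mismatch matches. The members' 1989 AP-1 elements had 17.1% (15.5 to 18.8%) within 20 bp, a density ratio of 0.703. In their downstream windows the share was 16.5% (9.88 to 26.1%) of 79 elements, with a ratio of 0.8125. Downstream of all distal regions it was 19.6% (16.9 to 22.6%), with a ratio of 0.898. Both intervals overlap that of members, so by this share AP-1 position was not set apart from the downstream windows. Per 10 bp, AP-1 was found 3.32 times per 100 members at the summit, 6.64 times 50 bp before it and 6.70 times 50 bp after it.

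**Figure D1:**
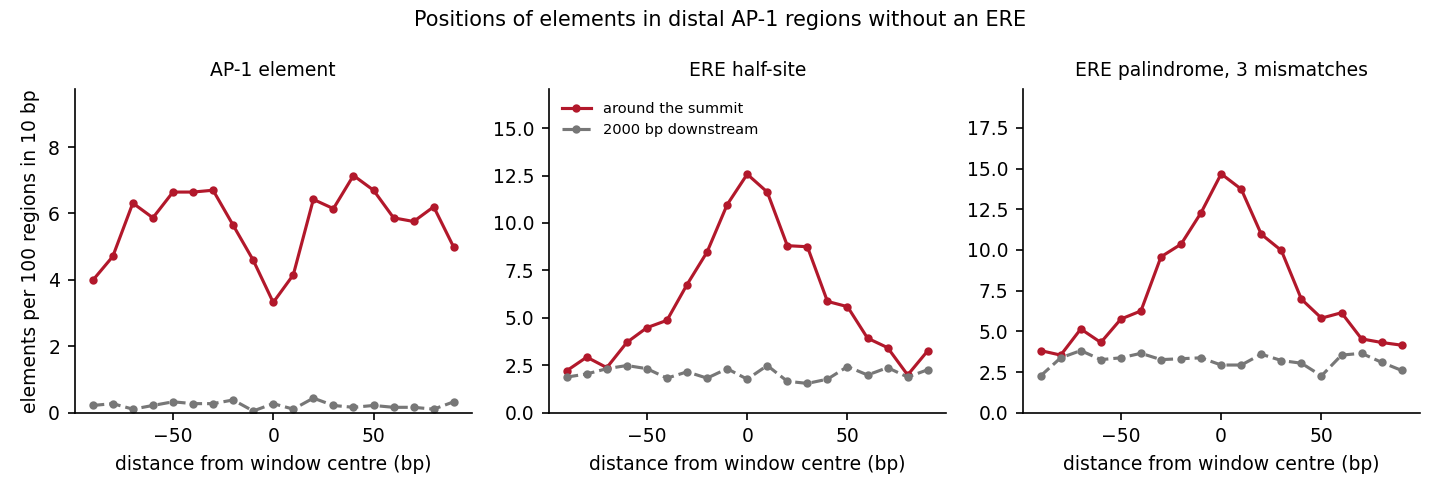
Number of elements per 100 distal AP-1 regions without an ERE in bins of 10 bp, by distance of the element's centre from the middle of the window, around the summit (red) and 2000 bp downstream (grey dashes). Half-sites reach 12.6 and 3-mismatch palindromes 14.7 per 100 at the summit, whereas AP-1 falls to 3.32 there. The rule requires AP-1 in the red window, so the height of the red AP-1 line is no finding, and its shape is what to read.

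The crowding of half-sites and 3-mismatch palindromes near the summit was more marked in regions with a higher −log10 q. For AP-1 the intervals of the lowest and highest quartiles overlap. Across quartiles of −log10 q of the whole estradiol list, bounded at 8.43, 16.5 and 50.7, the AP-1 density ratio in members was 0.955, 0.775, 0.628 and 0.578 from the lowest to the highest quartile. The AP-1 share within 20 bp was 20.9% (17.1 to 25.5%) in the lowest quartile and 14.6% (11.9 to 17.8%) in the highest. The half-site ratio over the same quartiles was 1.84, 1.96, 2.51 and 2.65. The half-site share within 20 bp was 33.3% (28.5 to 38.5%) in the lowest and 43.4% (39.6 to 47.2%) in the highest. The ratio for 3-mismatch palindromes was 1.27, 1.83, 2.40 and 2.80, and their share within 20 bp was 28.3% (24.1 to 32.9%) in the lowest and 43.9% (40.5 to 47.3%) in the highest. The share of members whose best ERE had 3 mismatches was 73.3% (68.3 to 77.7%) in the lowest quartile, 75.1%, 82.1%, and 86.2% (82.9 to 88.9%) in the highest. By the density ratio, AP-1 in the lowest quartile was nearly as dense within 20 bp of the summit as 30 to 70 bp away. In the highest quartile it was less dense within 20 bp. In the central 10 bp alone there was no steady trend, with 1.80, 4.12, 4.48 and 2.40 AP-1 elements per 100 members from the lowest to the highest quartile.

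Within single regions the order was the same. Among the 1301 members with a half-site, the half-site lay nearer the summit than AP-1 in 972 (74.7%, 72.3 to 77.0%), AP-1 lay nearer in 318, and the distances were equal in 11. These 1301 members held 2063 half-sites, while all 1806 members held 1989 AP-1 elements. The nearest half-site was thus often taken from more copies, so the share is not to be read against an even split. The part of copy number in it was not tested. The median distance was 19 bp for the nearest half-site and 47 bp for the nearest AP-1 element. From the lowest to the highest quartile of −log10 q, the half-site was the nearer element in 69.95%, 71.6%, 75.2% and 79.4% (75.1 to 83.2%). The centres of the nearest half-site and AP-1 pair were a median of 43 bp apart, and 293 pairs (22.5% of these members) were within 20 bp. The smallest gap was 6 bp, and the letters of these 2 elements do not allow them to share bases. Where a region has its summit on a half-site, AP-1 can only lie to the side, and the reverse holds as well.

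Regions that held AP-1 together with an ERE had a shallower dip, with an AP-1 density ratio of 0.825 against 0.703 in members, and 19.4% (17.6 to 21.3%) of their 1703 elements within 20 bp. Their half-sites were denser at the summit, with a ratio of 2.96. The AP-1 intervals of both classes overlap.

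Most members carried a single AP-1 element. There was 1 copy in 1637 members, 2 in 155 (8.58%, 7.38 to 9.96%) and 3 in 14 (0.775%), and the median fold was 11.2, 9.80 and 11.1 for 1, 2 and 3 copies. The interval of the median for 2 copies was 8.72 to 12.1, so the fold did not differ with copy number beyond counting error. The share with 2 or more copies was 9.36%, and 15.4% when AP-1 was required within 50 bp. The nearest AP-1 centre was a median of 47 bp from the summit, with quartiles of 27 and 69 bp. Among the 5 regions of 3 copies with the highest −log10 q, the first lay in an intron of SYN3, 83.2 kb from the nearest TSS, that of FBXO7 (a subunit of a ubiquitin ligase). Its copies were 58 bp before and 14 and 41 bp after the summit, and its fold was 110.5 with estradiol and 36.4 with LY500307, with no vehicle region. The others were nearest to DVL1 (a Wnt signal transducer) at 42.7 and 8.26 in that order, and ANKRD33 at 35.0 and 6.09. Regions near MRPS10 (12.6) and DIP2C (11.8) had no partner in the other lists.

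The bases next to AP-1 also differed from those around copies in the downstream windows. Read as TGACTCA, on either strand, 1947 elements of the members were compared with 733 elements in the downstream windows of all distal regions, leaving out elements too near a window's edge to show both flanks. A T just before the element was seen in 8.94% (7.75 to 10.3%) of the members' elements and 19.6% (16.9 to 22.7%) of the downstream ones. An A just after it was seen in 10.7% (9.39 to 12.1%) and 18.6% (15.9 to 21.5%). Either of them occurred in 18.3% (16.6 to 20.1%) of the members' elements against 34.5% (31.2 to 38.0%). The share was 19.6% in AP-1 regions with an ERE, so it was not set apart in members, and it was 15.5% in members of the highest quartile and 20.6% in those of the lowest. The pair GC just before it, as in the longer element of the MAF proteins, was in 6.93% (5.89 to 8.15%) of the members' elements and 6.003% (4.50 to 7.96%) of the downstream ones. A G before the element was the most frequent base in both sets, at 36.4% and 30.8%.

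Elements of other factors were counted within 100 bp of the summit in members, in their downstream windows and in all distal regions. The motifs, each on both strands, were TEAD (GGAATG), RUNX (TGTGGT), ETS (GGAAGT), SP1 (GGGCGG), the GATA factors (AGATAA), FOXA (TGTTTAC), the E-box (CAGGTG), the glucocorticoid receptor half-site (AGAACA), the cyclic AMP element CRE (TGACGTCA), C/EBP (TTGCNNAA), NF-kB (GGGNNNTTCC) and the extended half-site (AGGTCA). The extended half-site contains the half-site, and the others may overlap it in part. The extended half-site was in 46.2% (43.9 to 48.5%) of members, 14.3% (12.8 to 16.0%) of downstream windows and 51.3% of all distal regions. TEAD, whose factors act with the Hippo effectors YAP and TAZ, was in 17.8% (16.1 to 19.6%) of members against 12.6% (11.2 to 14.2%) downstream, and in 18.8% of all distal regions. ETS was in 14.1% (12.6 to 15.8%) against 11.02% (9.66 to 12.5%), and 13.4% of all distal regions. RUNX was in 17.2% (15.5 to 19.0%) against 14.2% (12.6 to 15.9%), and 18.0% of all distal regions. SP1 was in 8.03% (6.86 to 9.37%) against 5.09% (4.17 to 6.21%), and 12.96% of all distal regions. The TEAD and SP1 intervals lie apart from those downstream, while the ETS interval lies just above and the RUNX intervals overlap. In windows 2000 bp upstream, SP1 was at 6.31% (5.28 to 7.53%), which overlaps the members' interval, so its separation held downstream only. TEAD at 10.3% (8.98 to 11.8%) and ETS at 10.6% (9.29 to 12.1%) lay apart there too, and RUNX at 14.6% (13.1 to 16.3%) overlapped.

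The intervals of the remaining elements overlap those downstream. C/EBP stood at 8.14% in members, 10.0% in downstream windows and 7.66% in all distal regions, and GATA at 11.9%, 9.86% and 9.84%. FOXA, bound by a pioneer factor of luminal breast cells, stood at 2.60%, 2.71% and 1.85%. NF-kB was at 3.16%, 2.99% and 3.53%, the E-box at 22.4%, 21.2% and 19.9%, and the glucocorticoid half-site at 13.2%, 13.9% and 12.0%. The CRE was in 0.111% of members and in the same share of downstream windows, and in 0.145% of all distal regions. Base composition moved with these counts: the median GC content was 51.2% in members, 46.3% in their downstream windows and 52.2% in all distal regions, and its part in the differences was not tested.

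**Figure D2:**
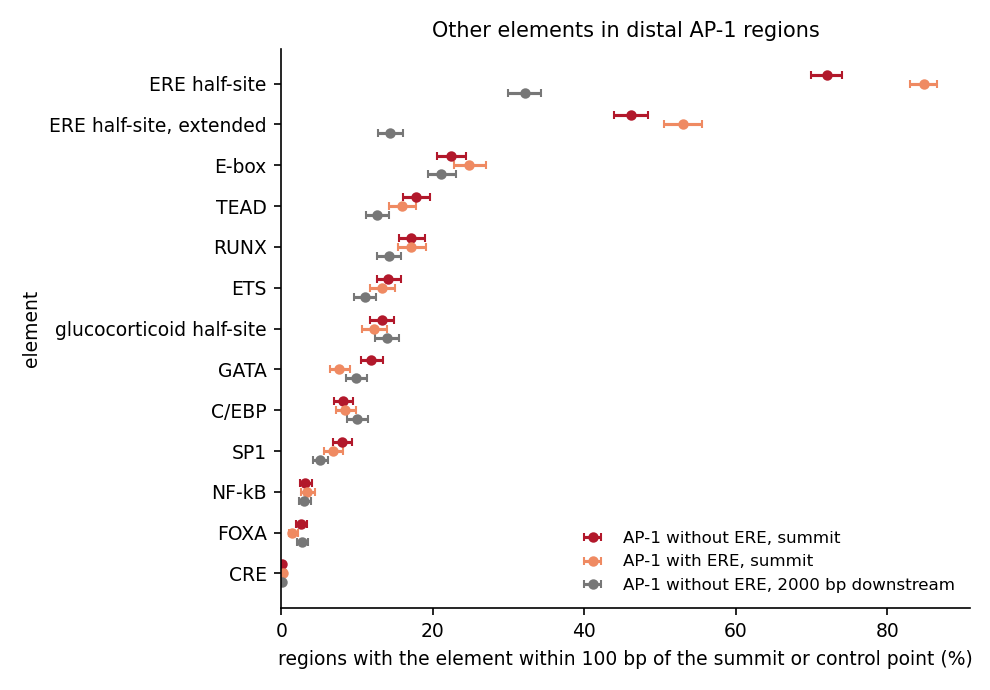
Share of windows of 100 bp to either side of the centre that hold each element, with 95% Wilson intervals, in distal AP-1 regions without an ERE (red) and with one (orange) at the summit, and in the windows 2000 bp downstream of those without (grey). The half-site (72.0% against 32.1% downstream) and its extended form (46.2% against 14.3%) stand farthest apart. The intervals of TEAD (17.8% against 12.6%), SP1 (8.03% against 5.09%) and, narrowly, ETS (14.1% against 11.02%) also lie apart from those downstream. The intervals of the remaining elements overlap those downstream.

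The members were middling in strength. Their authors' fold had a median of 11.2 (10.5 to 11.5), quartiles of 7.15 and 21.4, and a range of 3.45 to 180.0. AP-1 regions with an ERE had a median of 14.1 (13.2 to 15.2), regions with an ERE and no AP-1 12.95 (12.6 to 13.4), regions with a half-site alone 10.0 (9.80 to 10.3), and distal regions with none of these elements 6.998 (6.78 to 7.09). All distal regions had a median of 10.7 and all estradiol regions 9.50. Thus members were below both ERE classes and above regions with a half-site alone, with intervals of the medians that do not overlap.

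The values on either side of the ERE threshold formed a gradient. Distal AP-1 regions whose best ERE had 0, 1 or 2 mismatches, which are outside the set, had median folds of 18.5, 19.2 and 13.2 (n = 28, 347 and 1201). Members with 3, 4 and 5 mismatches had 11.5, 8.86 and 9.0 (n = 1443, 360 and 3). The AP-1 limit made less difference. Members with AP-1 at 80 to 97 bp had a median fold of 11.5 (n = 275), and distal regions without an ERE with the nearest AP-1 just outside, at 98 to 119 bp, had 10.2 (n = 214). AP-1 per base of distance was 15.3 regions at 80 to 97 bp and 9.73 at 98 to 119 bp, a fall steeper than that between 50 to 79 bp (18.9) and 80 to 97 bp.

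Seen from the other side, AP-1 was found more often as the −log10 q of distal regions without an ERE went up. In the estradiol list the share with AP-1 was 8.93% (7.43 to 10.7%) in the lowest decile, 17.2% in the fifth, 23.5% (21.0 to 26.3%) in the ninth and 21.3% (18.6 to 24.3%) in the highest. The downstream share stayed between 2.82% and 5.58%. Median GC content moved in part with it, from 58.2% in the lowest decile to 51.7% in the seventh and 55.2% in the highest, and its part was not tested. The LY500307 list had 5.56% (3.87 to 7.91%) in its lowest decile, 25.3% in its seventh, 15.5% (11.9 to 19.8%) in its ninth and 21.8% (17.5 to 26.7%) in its highest. The vehicle list had 1.52% (0.416 to 5.36%) in its lowest, 12.3% (6.62 to 21.8%) in its ninth and 24.7% (16.9 to 34.6%) in its highest decile. In the highest decile the intervals of the lists overlap. In the lowest, that of LY500307 overlaps both others, and those of estradiol and vehicle lie apart. Among distal estradiol regions with an ERE the AP-1 share was also higher in the highest decile (18.6%) than in the lowest (12.1%).

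**Figure D3:**
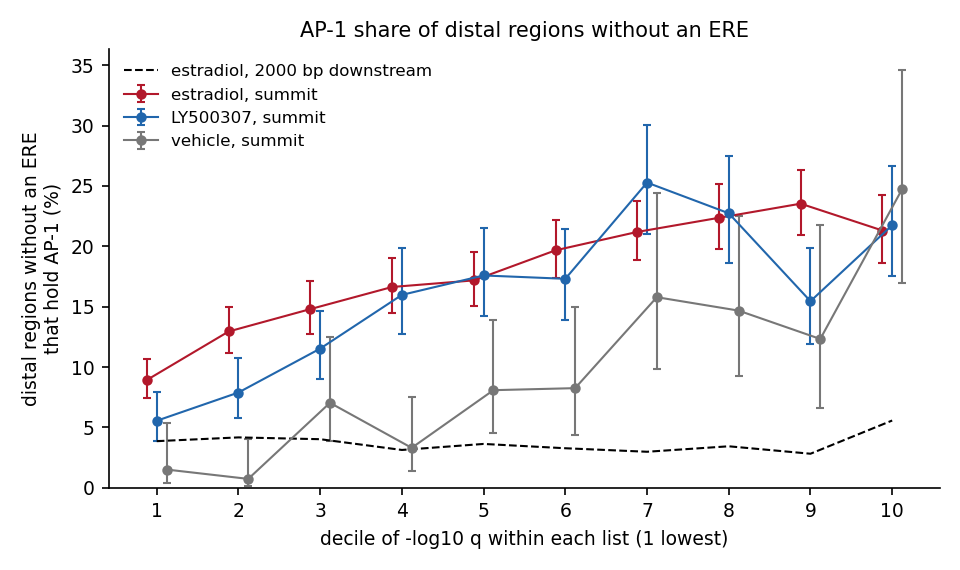
Share of distal regions without an ERE that hold AP-1 within 100 bp of the summit, by decile of −log10 q within each list, with 95% Wilson intervals. The estradiol share is 8.93% in decile 1 and 21.3% in decile 10, and the dashed line, the downstream windows of the estradiol regions, stays at or under 5.58%.

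The same rule was applied to each list in turn. It found 611 of 8017 distal LY500307 regions (7.62%, 7.06 to 8.22%) and 100 of 2117 distal vehicle regions (4.72%, 3.90 to 5.71%), beside the 8.75% with estradiol. Since the lists differ in length, the 2905 regions of highest −log10 q of each list were also taken. Of the distal ones among them, 194 of 2505 with estradiol (7.74%, 6.76 to 8.86%), 184 of 2476 with LY500307 (7.43%, 6.46 to 8.53%) and 100 of 2117 with vehicle (4.72%) met the rule. At equal length, the estradiol and LY500307 shares overlap in their intervals and lie above that of vehicle. The share of AP-1 regions with an ERE moved the same way, at 11.9%, 11.5% and 7.94%, as did the share of ERE regions without AP-1, at 52.5%, 51.1% and 36.8%, so this was not particular to members. Equal length is not equal strength. The 2905 are the whole vehicle list, down to a −log10 q of 2.02, and only the strongest part of the others. AP-1 shares were higher in the highest decile than in the lowest of each list. The part of this in the lower vehicle share was not tested.

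Most LY500307 and vehicle regions of this kind lay on estradiol regions. Of the 611 LY500307 regions, 594 (97.2%) overlapped an estradiol region and 534 (87.4%, 84.5 to 89.8%) a member. Of the 100 vehicle regions, 93 overlapped an estradiol region and 81 (72.2 to 87.5%) a member. Counted from the estradiol side, 9082 regions of any kind overlapped the 10045 LY500307 regions, and 2488 the 2905 vehicle regions. Such overlap was thus widespread and not particular to these regions. Overlapping regions share sequence, so meeting the same rule follows in part from the overlap. The median folds of the 611 and 100 regions were 9.46 with LY500307 and 8.78 with vehicle, below AP-1 regions with an ERE in the same lists (11.8 and 10.9).

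Of the 1806 members, 585 overlapped an LY500307 region by at least 1 bp (32.4%, 30.3 to 34.6%), beside 33.8% of all estradiol regions, and 94 overlapped a vehicle region (5.205%, 4.27 to 6.33%), beside 9.26% of all. In all 3 lists were 93 members (5.15%), beside 8.01% of all estradiol regions. The 1220 members with no partner in either list made up 67.6% (65.4 to 69.7%), beside 64.9% of all. The LY500307 share was thus near that of all estradiol regions. It was below that of AP-1 regions with an ERE (42.1%, 39.7 to 44.5%) and of ERE regions without AP-1 (37.9%, 36.9 to 38.9%). All distal regions had 35.2% (34.5 to 35.8%), a half-site alone 32.5% (31.3 to 33.8%) and none of these elements 30.2% (28.6 to 31.9%). These intervals overlap that of members. The vehicle share was below that of all estradiol regions. It was also below that of AP-1 regions with an ERE (10.9%, 9.41 to 12.5%), of ERE regions without AP-1 (8.75%, 8.17 to 9.36%) and of regions with none of these elements (13.7%, 12.5 to 15.0%). It was nearest to that of regions with a half-site alone (6.83%, 6.20 to 7.53%), whose interval overlaps. Where 50% of both regions had to overlap, the vehicle share was 2.77% (2.11 to 3.63%) in members, 4.63% (3.70 to 5.78%) in AP-1 regions with an ERE and 4.79% of all estradiol regions.

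Sharing depended on strength, so it was read within quartiles of −log10 q. LY500307 regions overlapped 1.502%, 2.97%, 19.8% and 92.2% (89.5 to 94.2%) of members from the lowest to the highest quartile. In the highest quartile the LY500307 share was 91.5% for AP-1 regions with an ERE and 89.7% (88.5 to 90.7%) for ERE regions without AP-1. Vehicle regions overlapped 0.901%, 0.915%, 0.560% and 16.8% (13.8 to 20.3%) of members over the same quartiles. In the highest quartile the vehicle share was 27.4% (24.1 to 31.03%) for AP-1 regions with an ERE, 24.1% (22.6 to 25.7%) for ERE regions without AP-1, 19.4% (17.4 to 21.6%) for a half-site alone and 23.6% (22.6 to 24.6%) for all estradiol regions. With any overlap counted, members of the highest quartile were in the vehicle list less often than ERE regions of that quartile, by intervals that cover counting error only. With 50% overlap required, the shares in that quartile were 8.60% (6.45 to 11.4%) in members, 11.7% (9.41 to 14.5%) in AP-1 regions with an ERE and 11.7% (10.6 to 12.9%) in ERE regions without AP-1, and the intervals overlap. Within that quartile members had a lower median fold (33.5) than AP-1 regions with an ERE (40.6) or ERE regions without AP-1 (37.1), and the part of this in the difference was not tested.

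**Figure D4:**
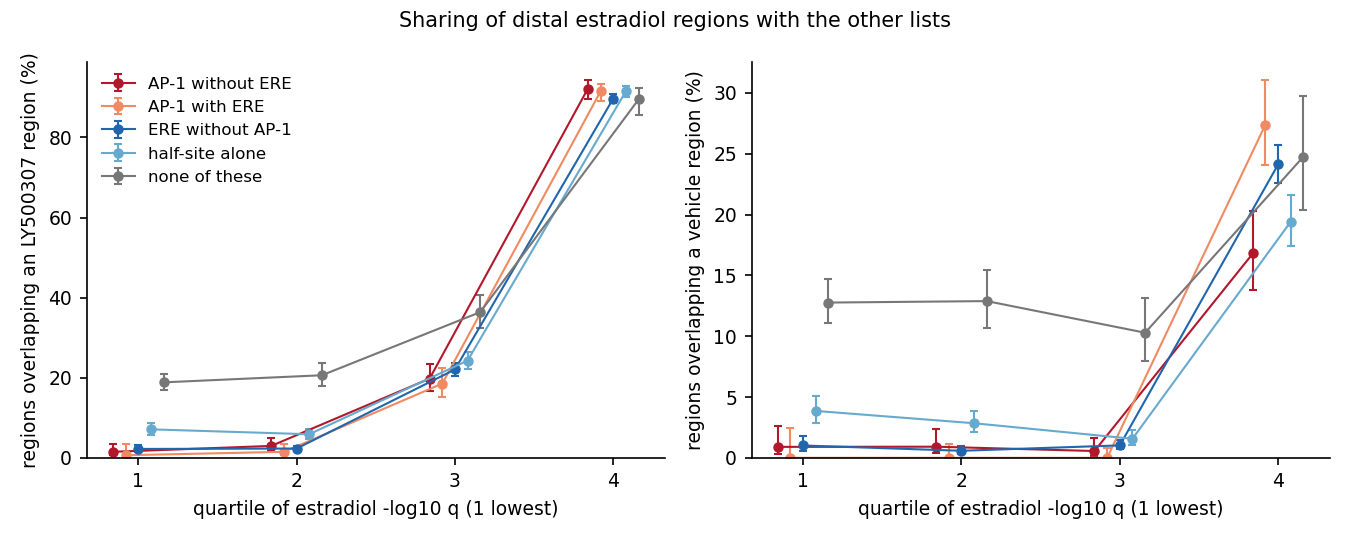
Share of distal estradiol regions that overlap an LY500307 region (left) or a vehicle region (right), by quartile of −log10 q of the estradiol list, for 5 classes of sequence, with 95% Wilson intervals. In the highest quartile the LY500307 shares run together near 90%, while the vehicle share is 16.8% for AP-1 without ERE against 27.4% for AP-1 with ERE. Regions with none of the elements were shared with vehicle at every strength.

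Fold and sharing went together within the set. The 93 members in all 3 lists had a median fold of 90.2 under estradiol, 32.9 under LY500307 and 9.45 under vehicle. The 492 members shared with LY500307 alone had 27.7 with estradiol and 8.81 with LY500307. The 1220 in neither list had a median of 8.44 and a maximum of 42.5. These folds come from separate pools of unknown depth and are set side by side only. Of the 585 members shared with LY500307, 6 had the higher fold in the LY500307 list. Of the 94 shared with vehicle, 3 had the higher fold in the vehicle list. In AP-1 regions with an ERE these counts were 2 of 663 and 0 of 171. They were 25 of 3316 and 7 of 766 in ERE regions without AP-1. Regions with a half-site alone had 80 of 1810 and 31 of 380. A higher fold under estradiol was thus the rule in each of these classes and not particular to members.

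Among the other elements, GATA was rarer in members of all 3 lists than in those of no other list. It was in 2.15% (0.592 to 7.51%) of the 93 members in all 3 lists and in 13.3% (11.5 to 15.3%) of the 1220 in no other list. This was the widest gap among the elements counted, and it rests on 2 of the 93 regions. The same split was not made in other classes, so it cannot be called particular to members. The glucocorticoid half-site was in 6.45% (2.99 to 13.4%) and 14.6% (12.7 to 16.7%), intervals that overlap. GC content moved with this split, with a median of 55.7% in members of all 3 lists and 50.7% in those of no other list, and its part was not tested. The half-site, at 77.4% (67.9 to 84.7%) and 71.6% (69.0 to 74.1%), did not differ beyond counting error.

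The strongest members lay near genes of varied function. The 20 with the highest −log10 q were in all 3 lists, and all 20 had the highest fold under estradiol and the lowest under vehicle. They were chosen by estradiol −log10 q, which favours a high estradiol fold. The first lay 18.5 kb from the TSS of CCN1, a secreted matrix protein and a standard target of YAP and TEAD. Its fold was 170.2 under estradiol, 85.2 under LY500307 and 30.4 under vehicle. SLC1A7, a glutamate transporter, held the second in an intron, with 180.0, 95.9 and 37.9 in that order. BHLHE40, a repressor in the circadian clock, was 42.2 kb from the third, with 135.1, 91.6 and 45.9, the highest vehicle fold among the 20.

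Several of these 20 lay near genes of signalling, adhesion and transcription. The region nearest to SPRED2, an inhibitor of the RAS and ERK pathway, was 171.9 kb away and had folds of 139.3 under estradiol, 103.6 under LY500307 and 27.7 under vehicle. The one in an intron of CDH3, which encodes P-cadherin, had 151.0, 45.5 and 17.3 in that order. FOSL2, which encodes the AP-1 subunit FRA2, was 31.6 kb from a region of 118.6, 80.9 and 19.9. BMAL1, a core clock activator, was 61.3 kb from a region of 138.0, 73.7 and 24.7, and ADAM12, a metalloprotease, held one of 147.5, 63.4 and 20.2 in an intron. The nearest AP-1 element lay 50 bp or more from the summit in 17 of the 20: at CDH3 84 bp, at FOSL2 52 bp, at BMAL1 78 bp and at ADAM12 94 bp. Over all members, 31.4% had it at 50 to 79 bp and 15.2% at 80 to 97 bp. The best ERE had 3 mismatches in 16 of the 20, beside 79.9% of all members. It had 4 in the others, KLHDC4, MAB21L4, BMAL1 and CRYAA. The best placement was centred within 20 bp of the summit in 17 of the 20, taking the one nearest the summit where several were equal. That count was not made over all members.

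**Figure D5:**
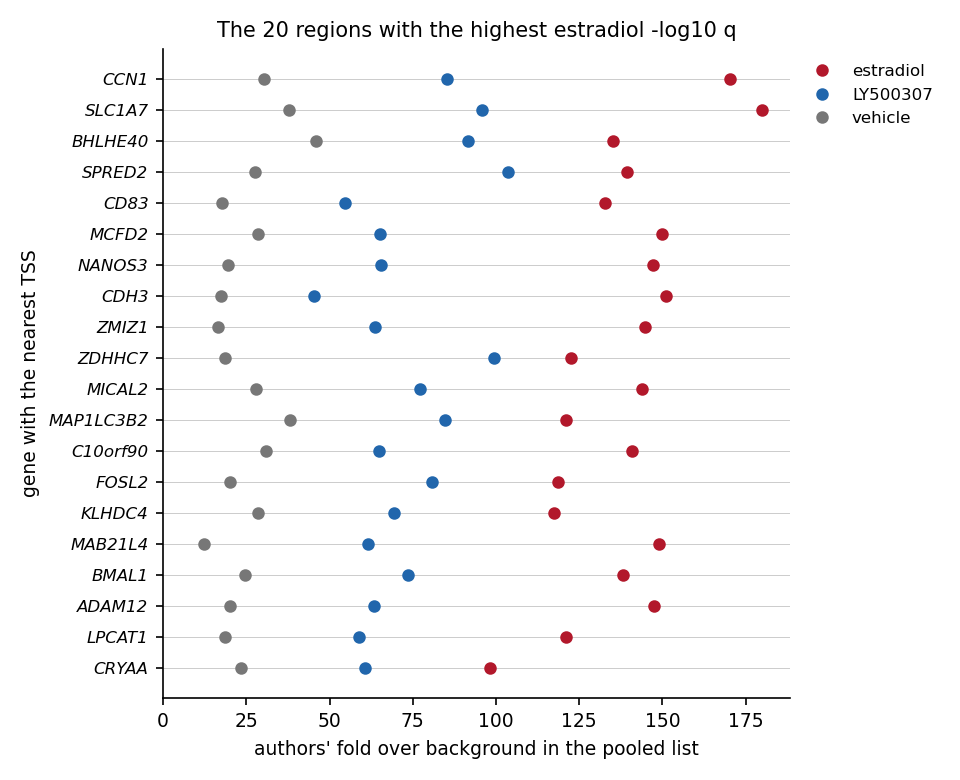
The authors' fold over background in the pooled estradiol, LY500307 and vehicle lists for the 20 distal AP-1 regions without an ERE of highest estradiol −log10 q, named by the gene with the nearest TSS. In each row estradiol is highest and vehicle lowest, and the choice of regions by estradiol −log10 q favours a high estradiol fold. The lists are separate pools of unknown depth.

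Members found with estradiol and LY500307 and not with vehicle began with a region 6.85 kb from ANKRD9, with folds of 115.1 with estradiol and 27.1 with LY500307. It was followed by the SYN3 intron region described above and by one in an intron of PACSIN2, a membrane-bending protein, with 106.5 and 41.02. Regions near GAP43, a growth cone protein, and ZNF469 had 101.5 and 40.6, and 99.996 and 37.7. The strongest members in no other list were weaker: 42.5 near PLB1, a phospholipase, 36.2 near GADD45A, a stress-induced growth arrest gene, 29.1 near ECI2, 27.7 near HMX3 and 24.1 in an intron of SUGCT. The 1 member shared with vehicle alone lay in GLRX3, 0.413 kb from its TSS, with folds of 4.91 with estradiol and 4.59 with vehicle.

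By position, 913 members lay in introns (50.6%, 48.2 to 52.9%) and 893 between genes. Their median distance to the nearest protein-coding TSS was 27.2 kb, beside 22.8 kb for all distal regions, and 17.1% were within 5 kb, beside 24.2%. Intergenic members had a median fold of 11.7 (10.9 to 12.4) and intronic ones 10.5 (9.83 to 11.3), intervals that overlap. The nearest ERE region was a median of 24.05 kb away, and 23.3% (21.4 to 25.3%) of members had one within 5 kb, within the 19.1 to 24.6% of the other distal classes.

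The members were spread over many genes. They were nearest to 1475 genes, of which 1230 had 1 member, 185 had 2 and 60 had 3 or more. MYEOV had the most, with 6 of the 20 estradiol regions nearest to it, at 0.567 to 126.6 kb from its TSS and with folds of 7.35 to 34.7. IRF2BP2, a transcriptional corepressor, had 5 of 17, PODXL, a sialomucin of invasive cells, 5 of 16, and SOX9, a transcription factor of stem and progenitor cells, 5 of 18. The SOX9 members lay 123.6 to 302.0 kb from its TSS with folds of 5.25 to 38.8. BHLHE40, first by alphabet of 17 genes with 4 members, had 4 of 12, and 1 of the 4 was shared with LY500307.

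Genes of 8 groups were looked up among the 1255 protein-coding genes (6.38% of 19663) that were nearest to a member within 100 kb. The groups were chosen with earlier results of these data known, and their counts are descriptions. Of the 19663 genes, 7435 were nearest to any distal estradiol region, the background for that count in each group. Each group described below except the hepatocyte control lay above that share, so nearness to distal regions was not particular to members. Of 11 AP-1 family genes, 3 were nearest to a member, beside 9 nearest to any distal estradiol region. JUN was 97.7 kb from a region with folds of 46.2 under estradiol, 11.01 under LY500307 and 6.91 under vehicle. FOSL1, which encodes the AP-1 subunit FRA1, held one in an intron, 0.983 kb from its TSS, with 20.7 and 14.3 and no vehicle region. FOSL2 was described above. Within 20 kb only FOSL1 was counted, and with EREs of 3 or fewer mismatches barred the count was 0.

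Of 13 genes of TGF-beta signalling, 6 were nearest to a member, beside 12 to any distal region. Within the limit of 100 kb the strongest lay in an intron of SMAD3, a transducer of the pathway, with folds of 34.4 with estradiol and 9.28 with LY500307. Those near the inhibitory SMADs followed, SMAD7 with 27.0 and 7.12 and SMAD6 with 13.8 and 7.77 in that order. TGFBI, a matrix protein induced by the pathway, had 12.4 with estradiol alone. A second SMAD6 region, 129.9 kb from the TSS and so outside the limit, had 35.0 and 9.87. None of these was in the vehicle list. Within 20 kb the count was 3, and with EREs of 3 or fewer mismatches barred it was 1.

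Of 11 Hippo pathway genes, 2 were nearest to a member, CCN1 and AXL, a receptor kinase, with a fold of 8.21 with estradiol alone. Of 16 genes of growth factor signalling and its feedback there were 3: MET, a receptor kinase, with 19.7, SPRED2, with a second and nearer region of 15.6, and DUSP5, an ERK phosphatase, with 5.61, each with estradiol alone. Of 13 cytokine genes and regulators there were 3, all with estradiol alone: NFKBIA, the NF-kB inhibitor, with 10.9, CSF2 with 9.38 and LIF with 3.74. Nearest to any distal region were 9 of the Hippo, 11 of the growth factor and 11 of the cytokine genes.

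Of 12 genes known as estrogen targets in breast cells, 2 were nearest to a member, beside 10 to any distal region. The region 73.1 kb from PGR, the progesterone receptor gene, ran against the order of the strongest members, with folds of 7.70 under estradiol, 5.08 under LY500307 and 9.88 under vehicle. It was 1 of the 3 members whose vehicle fold was the higher. RARA, a retinoic acid receptor gene, held a region of 6.71 with estradiol alone. Of 11 hepatocyte genes, taken as a control group, none was nearest to a member and 2 were nearest to any distal region.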

How the data were processed

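Flag ChIP-seq of ER-beta was analysed from 3 deposited narrowPeak lists, 1 per treatment. Per the labels, each list is named by all 4 ChIP libraries of its treatment, so it was taken as a pool, although the protocol describes triplicate treatment. Bowtie2 2.2.6, DiffBind, MACS2 2.1.1.20160309 and hg38 are named, per the submitters' processing notes, without roles or settings. A deposited integer score, meant for display, was left out. The deposited fold is a ratio of pooled ChIP signal over background at the summit, and the deposited −log10 q is the authors' significance value, by which regions were ranked. Depth is not given, and single libraries and inputs were not analysed here.

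Summits were placed on hg38 and annotated with GENCODE 44. Elements were sought on both strands in 201 bases around each summit and 2000 bp up- and downstream of it. Implanted elements in simulated windows were found in 100.0% of 2000 windows each. Shares have 95% Wilson intervals, and medians have order-statistic intervals. No test was made, since there are no replicate values. Members, groups and lists were chosen with earlier results of these data known. Named regions were the 20 of highest −log10 q, the highest 5 of each sharing pattern and of those with 3 AP-1 copies, those of the 5 genes with most members (ties in alphabetical order), and the highest near each group gene, up to 4 a group. The result of 1 gene group is not reported here. Alternatives concerned the AP-1 window, ERE mismatches, promoter and exon limits, −log10 q, overlap and gene distance. Python 3.11.15, numpy 2.4.6, pandas 2.3.3, scipy 1.17.1, pysam 0.24.0 and matplotlib 3.10.9 were used.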

Additional observations from a re-analysis of the deposited data

How the results depend on the processing

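With AP-1 required within 50 bp there were 923 members, nearest AP-1 lay at a median of 27 bp and 13 group genes were counted, against 1806, 47 bp and 20 as reported. With AP-1 within 200 bp the distance was 64 bp and the genes 34. When only EREs of 1 or fewer mismatches were barred, there were 3007 members, the LY500307 share was 35.1%, the vehicle share 6.72%, the median fold 11.7, the half-site share 75.3% and the group genes 31. When EREs of 3 or fewer were barred, these were 363 members, 27.0% for LY500307, a median fold of 8.88, a half-site share of 66.1% and 5 genes. At a −log10 q of 10 or more, the LY500307 share was 43.2%, the vehicle share 6.79%, the median fold 14.6 and the half-site share 74.3%. With an overlap of 50% of both regions the shares were 29.1% and 2.77%. Group genes within 20 kb were 9. The other 35 values of these results under an alternative stayed within the counting interval of the reported value or, for counts, within 1.5 times of it. The share with 2 or more copies of AP-1 was 15.4% with AP-1 within 50 bp and 12.8% within 200 bp, against 9.36%. AP-1 elements within 20 bp of the summit were 15.6 to 19.6% and half-sites 40.0 to 42.0% over all ERE, position and −log10 q alternatives.

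No paired analysis was possible because each treatment has 1 pooled list and replicate numbers follow accession order only. Depth is unknown, leaving out a library was not possible with pooled lists, and intervals omit the spread between cultures.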
